A study of Mus musculus with 27 samples.

Results

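PDGFRα-sorted cardiac fibroblasts of 1.5-year-old mice were compared with those of postnatal day 1, the widest span of ages in the series, over all genes that lie off chromosomes X and Y and outside the collagen, matrix metalloproteinase (MMP), TIMP and TGF-β pathway lists. Of 22855 genes in the fibroblast table, 21106 met this rule, 862 lay on X or Y, 797 had no single position in the annotation and 90 belonged to the families left out. Counts were high enough to test 17615 of the 21106. RNA of cardiac fibroblasts and of whole heart was sequenced from C57BL/6 mice at 5 ages to follow how these cells change over the life of the animal. The fibroblasts came from ventricles without atria and valves, which were digested to nonmyocytes and sorted by flow cytometry on PDGFRα, a surface receptor of fibroblasts. The labels name no transgene and no treatment, and age is the only difference they state between the groups. They give 3 libraries at postnatal day 1 (replicates 1 to 3) and 2 at 1.5 years (labelled as 18 months, replicates 4 and 5), and state neither the sex of the animals nor the number of hearts in a library.

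Fibroblasts build and turn over the extracellular matrix of the heart, and they are recognised by the receptor PDGFRα and the transcription factor Tcf21. Around birth they divide and lay down matrix while the ventricle grows, and in the adult they are largely quiescent. Imprinted genes, which are read from only the maternal or only the paternal chromosome, include growth factors of the fetus such as Igf2, and adult fibroblasts of many organs make complement proteins and chemokines.

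Total counts were between 63750869 and 74710723 in the 5 libraries. Mitochondrial genes took 6.15% to 9.18% of the counts at postnatal day 1, and 2.20% and 7.83% in replicates 4 and 5 of 1.5 years. Levels are given as CPM, counts scaled to the size of their library by the TMM method. The fibroblast gene Pdgfra was at 811, 784 and 939 CPM at postnatal day 1 and 1139 and 1164 CPM at 1.5 years, and Tcf21 was at 376, 250.3 and 256 CPM at postnatal day 1 and 283 and 210.0 CPM at 1.5 years, so both markers were present at both ages. Markers of other cells were present too. The 14 cardiomyocyte markers summed to 27.1 and 162 CPM at 1.5 years against 891 to 989 CPM at postnatal day 1, and 8 of them fell. The 12 endothelial markers summed to 890.3 and 2362 CPM at 1.5 years against 1079 to 1438 CPM at postnatal day 1, highest in 1.5-year replicate 5, and none was called (by edgeR at an unadjusted p under 0.05, 1 was higher; DESeq2 called 0). Of 12 macrophage markers 4 fell, of 11 smooth muscle and pericyte markers 2 rose and 3 fell, of 9 Schwann cell and glial markers 2 rose and 1 fell, and of 8 markers of MHC class II cells 4 rose. On leaving out 1 library at a time, the calls of the macrophage genes Cd68, Csf1r and C1qb were each lost at least once. The same held for the smooth muscle gene Cnn1, the glial list gene Ngfr and the cardiomyocyte genes Myh7, Myl3, Tnni1 and Ttn. Among lymphocyte, mesothelial, fat cell and red blood cell markers, edgeR called the globin gene Hbb-bs as higher and no other. Hbb-bs no longer passed without 1.5-year replicate 5 or without postnatal replicate 1 or 3 (adjusted p from 0.0744 to 0.307). Of the 8 lymphocyte markers, 4 were higher in edgeR at an unadjusted p under 0.05, and DESeq2 called 1 as higher, while the mesothelial and fat cell markers had 0 by either. In sorted cells sequenced in bulk, fewer cells of a type and less RNA per cell cannot be told apart. Xist, which is transcribed from the inactive X chromosome, was at 429 and 424 CPM at 1.5 years and between 137 and 276 CPM at postnatal day 1. The Y-linked gene Ddx3y was at 0.0813 and 0.0468 CPM against 31.6 to 36.3 CPM. Each postnatal library thus held RNA of both sexes, and so of more than 1 animal, whereas the 1.5-year libraries held next to no Ddx3y. The sex of the animals and their age therefore cannot be told apart in this comparison. The spread of the postnatal libraries is that between mixed samples and not between single animals.

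**Figure D1:**
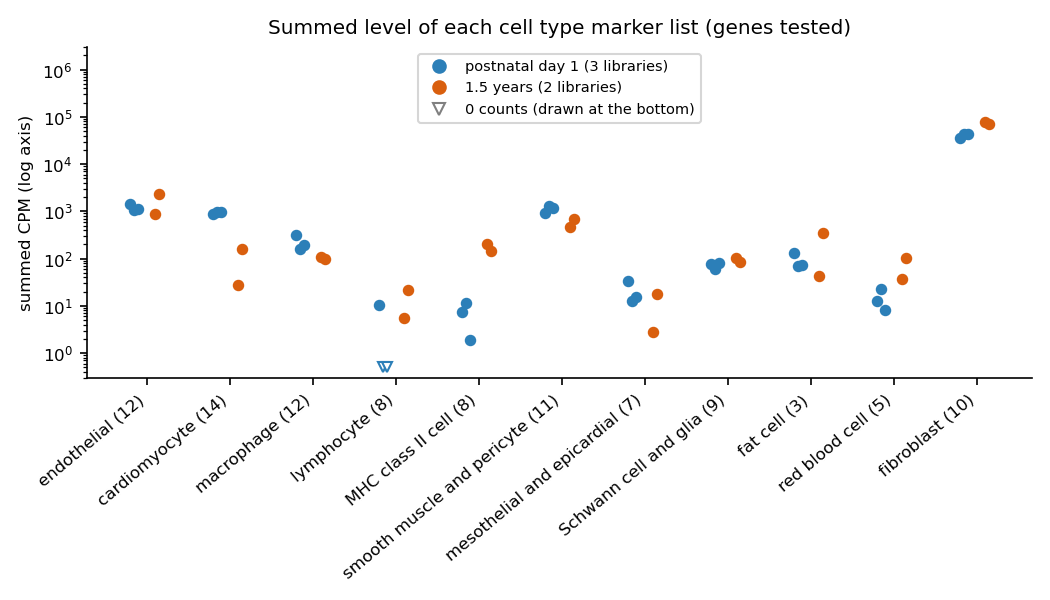
Summed CPM (log axis) of each cell type marker list, with the number of markers tested in parentheses; each point is 1 of the 5 libraries, and open triangles mark a sum of 0. Cardiomyocyte sums were lower and MHC class II cell sums higher in both 1.5-year libraries, and the endothelial sum of 1.5-year replicate 5 lay above all other libraries.

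Ages were compared with edgeR's quasi-likelihood F test, and a gene was taken to rise or fall where the p, adjusted for all 18759 genes of the fit by Benjamini and Hochberg, was under 0.05. Of the 17615 genes, 2897 (16.4%) differed, with 1764 (10%) higher and 1133 (6.43%) lower at 1.5 years, and 1970 of them changed at least 2-fold. The median log2 fold change of the 17615 was 0.00. These shares of 10% and 6.43% are the background for the counts of each gene list. They cover genes with few or no counts at the 2 ages as well. In a fit limited to genes with at least 10 counts in every library compared, 1644 of 11239 rose and 1287 fell. Both shares were larger there, and the median log2 fold change was -0.036. The levels of the ages did not overlap for 41.5% of the 17615 genes, and 2887 of the 2897 were among these. A lack of overlap, where it is mentioned for called genes, is thus nearly given by the call and is no added support. With scaling by library size only, 1358 genes were higher and 1828 lower, and the median log2 fold change of the 17615 genes was -0.15. The number of changed genes was 1775 without 1.5-year replicate 5 and 2023 without replicate 4, where the lone library left at that age was assumed to vary like those of the other ages. Where every library of an age held at most 3 counts of a gene, its fold was computed against 3 counts per library and is written as at least so many fold, a limit that covers counting error only. The limit applied to 205 of the genes called higher and 40 of those called lower. In the cell cycle, fetal, MHC class I, immediate early and heat shock, and oxidase lists described further on, the direction with no call in edgeR also had 0 genes at an unadjusted p under 0.05 and 0 called by DESeq2.

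**Figure D2:**
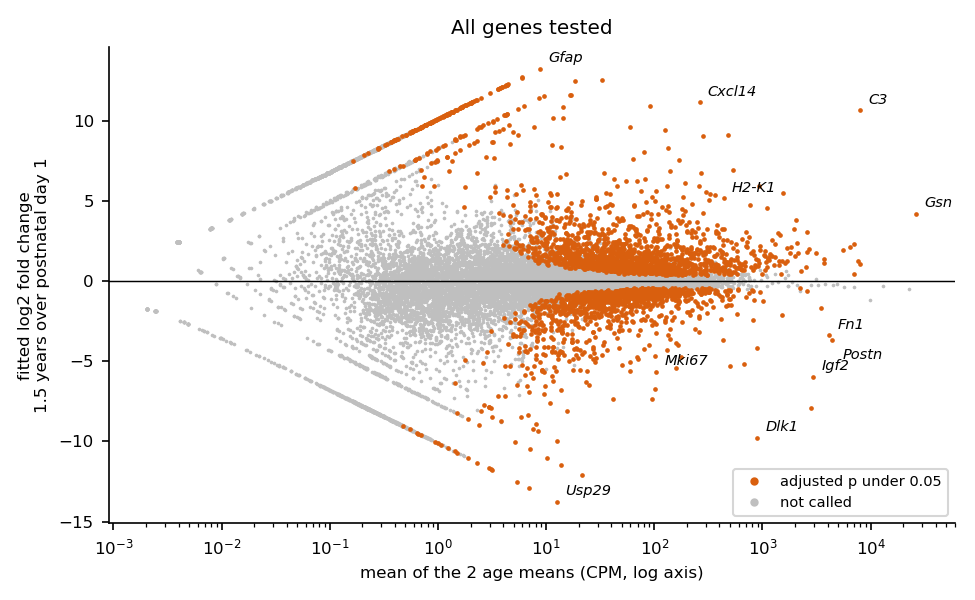
Fitted log2 fold change of the 17615 genes tested (vertical axis) against the mean of the 2 age means in CPM (log axis), with the 2897 called genes in orange. Gsn and C3 lie far to the right among the rises and Igf2, Postn and Fn1 among the falls; the diagonal lines of points are genes with few or no counts at 1 age, whose fitted size depends on the prior count.

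The 10 largest rises among protein-coding genes that passed the test, did not overlap and reached a mean of 10 CPM were those of Gfap, Gm42517, Tgtp2, Ccl11, Itih2, Duox1, Aox3, Ptgfr, Cxcl14 and Inmt. The first 8 had at most 3 counts in every library of postnatal day 1. Cxcl14, a chemokine gene of many epithelia and stromal cells, was at 0.196, 0.249 and 0.235 CPM at postnatal day 1 and 442 and 604 CPM at 1.5 years (log2 fold change 11.17, SE 0.22, adjusted p = 1.62e-11). Ccl11, whose product attracts eosinophils, was at 0.0123, 0 and 0.0147 CPM at postnatal day 1 and 84.2 and 45.8 CPM at 1.5 years (at least 1563-fold higher at 1.5 years, adjusted p = 2.65e-06). Both chemokines were close to absent in all 3 postnatal libraries and high in both others. Among enzymes, Inmt, a methyltransferase of indoles and other amines, was at 0.0736, 0.102 and 0.103 CPM at postnatal day 1 and 133 and 234 CPM at 1.5 years (log2 fold change 10.94, SE 0.41, adjusted p = 1.09e-08). The aldehyde oxidase gene Aox3 was at 0.0123, 0.0146 and 0 CPM at postnatal day 1 and 30.9 and 35.6 CPM at 1.5 years (at least 801-fold higher at 1.5 years, adjusted p = 6.1e-08). Duox1, an oxidase that makes hydrogen peroxide, was at 0, 0.0146 and 0.0147 CPM at postnatal day 1 and 37.5 and 30.5 CPM at 1.5 years (at least 818-fold higher at 1.5 years, adjusted p = 3.2e-08). For each of the enzymes the 2 older libraries differed from each other by far less than from the postnatal ones. Itih2, a heavy chain that becomes attached to hyaluronan, was at 0, 0 and 0.0147 CPM at postnatal day 1 and 40.8 and 32.7 CPM at 1.5 years (at least 885-fold higher at 1.5 years, adjusted p = 1.54e-08). Ptgfr, the receptor of prostaglandin F2α, was at 0, 0.0146 and 0 CPM at postnatal day 1 and 15.1 and 23.3 CPM at 1.5 years (at least 462-fold higher at 1.5 years, adjusted p = 1.59e-07). Tgtp2, an interferon-induced GTPase, was at 0 CPM in each library at postnatal day 1 and 7.88 and 15.9 CPM at 1.5 years (at least 286-fold higher at 1.5 years, adjusted p = 0.000201), and its reads are uncertain because Tgtp1 is a near-identical copy. No library of postnatal day 1 held a count of Tgtp2, Gfap or Gm42517. Gfap, an intermediate filament of astrocytes and other glia, was at 0 CPM in each library at postnatal day 1 and 17.5 and 17.4 CPM at 1.5 years (at least 421-fold higher at 1.5 years, adjusted p = 0.000143). The 9 glial markers, Gfap included, summed to 103 and 84.5 CPM at 1.5 years against 60.4 to 82.1 CPM at postnatal day 1, and the defining glial gene Sox10 reached at most 0.244 CPM. Another glial marker, Cdh19, a cadherin of Schwann cell precursors, was at 8.05, 16.6 and 19.2 CPM at postnatal day 1 and 60.9 and 45.1 CPM at 1.5 years (log2 fold change 1.86, SE 0.34, adjusted p = 0.00191) and rose as well. Ngfr, which the glial list also holds, fell, so that of the 9 markers 2 rose and 1 fell. Their summed level thus joins moves in both directions. The part of glial cells in the result on Gfap was not tested. Gm42517, a gene model whose function is not known here, was at 0 CPM in each library at postnatal day 1 and 9.17 and 14.7 CPM at 1.5 years (at least 287-fold higher at 1.5 years, adjusted p = 0.000198).

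The 10 largest falls by the same rule were those of Usp29, Hcn4, Igf2bp3, Magel2, Moxd1, Kif14, Hmga2, Kif15, Dlk1 and Mxd3, and all but Dlk1 had at most 3 counts in both libraries of 1.5 years. Dlk1, an imprinted gene of a Notch-like surface protein of fetal mesenchyme (chr12:109452823-109463336 in GRCm38), was at 1254, 2218 and 1870.3 CPM at postnatal day 1 and 0.829 and 3.24 CPM at 1.5 years (log2 fold change -9.77, SE 0.83, adjusted p = 4.24e-06). The imprinted gene Usp29 was at 26.6, 23.1 and 25.5 CPM at postnatal day 1 and 0 CPM in both libraries at 1.5 years (at least 525-fold lower at 1.5 years, adjusted p = 0.0144). Magel2, imprinted as well, was at 25.3, 34.9 and 21.8 CPM at postnatal day 1 and 0.0163 and 0 CPM at 1.5 years (at least 572-fold lower at 1.5 years, adjusted p = 0.000127). All 3 imprinted genes were high in each postnatal library and near 0 at 1.5 years. Igf2bp3, an RNA-binding protein of the fetus, was at 41.8, 42.2 and 44.8 CPM at postnatal day 1 and 0 and 0.0156 CPM at 1.5 years (at least 899-fold lower at 1.5 years, adjusted p = 0.000784). Hmga2, a chromatin protein of the fetus, was at 14.9, 14.2 and 1.56 CPM at postnatal day 1 and 0 and 0.0156 CPM at 1.5 years (at least 214-fold lower at 1.5 years, adjusted p = 0.0078). The third postnatal library was the lowest for Hmga2 by a wide margin and still lay above both older ones, as the rule required. Kif14, a motor of the mitotic spindle, was at 10.7, 16.1 and 15.4 CPM at postnatal day 1 and 0.0163 and 0 CPM at 1.5 years (at least 294-fold lower at 1.5 years, adjusted p = 0.00271). The spindle motor gene Kif15 was at 20.4, 33.1 and 22.2 CPM at postnatal day 1 and 0 and 0.0468 CPM at 1.5 years (at least 529-fold lower at 1.5 years, adjusted p = 0.00733). Mxd3, a partner of Max that is expressed in S phase, was at 18.4, 15.5 and 16.2 CPM at postnatal day 1 and 0 and 0.0468 CPM at 1.5 years (at least 349-fold lower at 1.5 years, adjusted p = 0.0175). For these genes of dividing cells, as for the others here, the rule that chose them required that the ages did not overlap. Moxd1, a monooxygenase-like protein, was at 23.5, 17.7 and 19.996 CPM at postnatal day 1 and 0.0163 and 0 CPM at 1.5 years (at least 427-fold lower at 1.5 years, adjusted p = 0.0106). Hcn4, the pacemaker channel of the sinus node and of fetal myocytes, was at 16.5, 3.86 and 11.8 CPM at postnatal day 1 and 0 CPM in both libraries at 1.5 years (at least 225-fold lower at 1.5 years, adjusted p = 0.044). In whole heart at postnatal day 1 it was at 2.25 to 6.64 CPM. Several cardiomyocyte markers fell too, and the part of cardiomyocytes in this result was not tested. Several of these calls depended on 1 library. Usp29 no longer passed without 1.5-year replicate 4 or 5 (adjusted p from 0.0681 to 0.0745). Hcn4 no longer passed without 1.5-year replicate 4 or 5 or without postnatal replicate 1, 2 or 3 (adjusted p from 0.053 to 0.177). Moxd1 no longer passed without 1.5-year replicate 4 or 5 (adjusted p from 0.0556 to 0.0828). Mxd3 no longer passed without 1.5-year replicate 4 or 5 (adjusted p from 0.0647 to 0.107). Hmga2 no longer passed without 1.5-year replicate 4 (adjusted p = 0.0514). Kif15 no longer passed without 1.5-year replicate 4 (adjusted p = 0.0583).

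**Figure D3:**
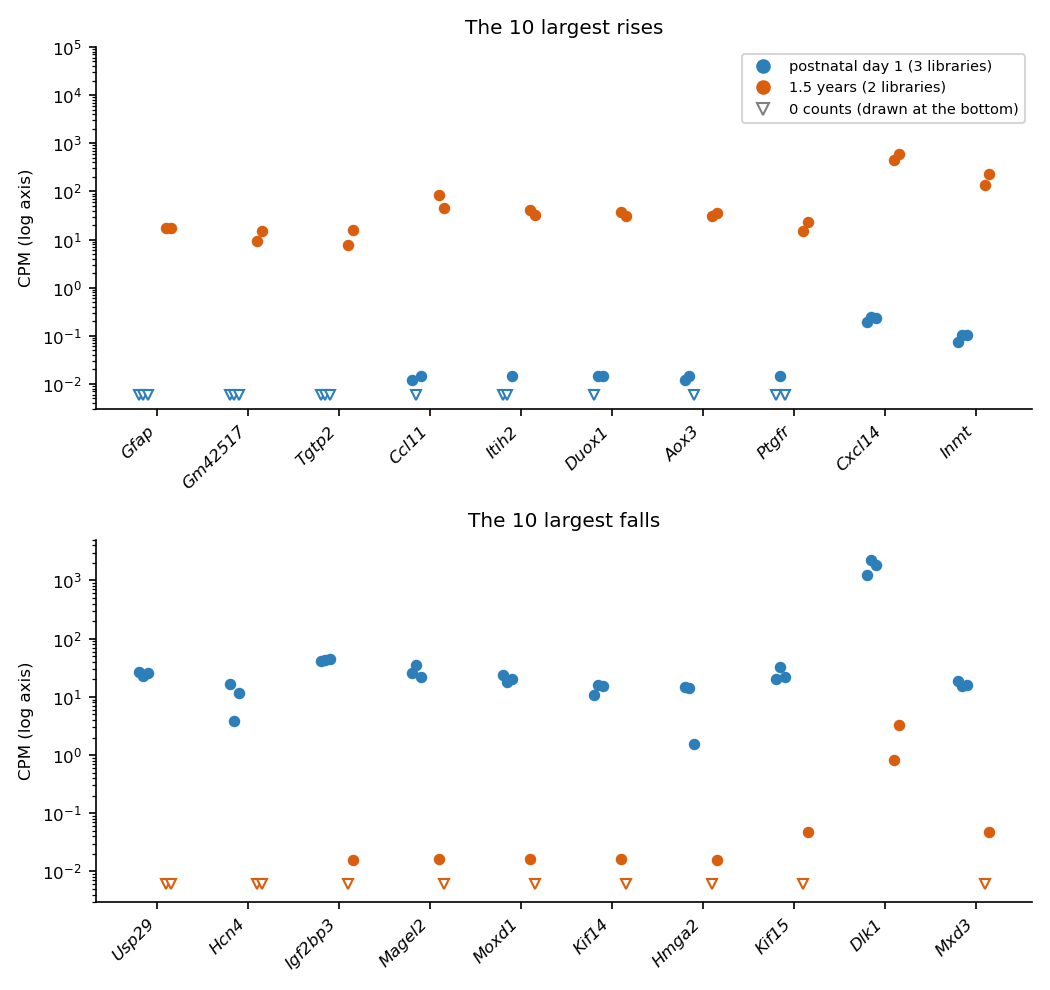
CPM (log axis) of the 10 largest rises and the 10 largest falls in the 3 libraries of postnatal day 1 (blue) and the 2 of 1.5 years (orange); each point is 1 library and open triangles mark 0 counts. The ages do not overlap for any of the 20 genes, as the rule that chose them required, and 1 postnatal library is well below the others for Hmga2.

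Among changed genes with the highest counts, the rises were Gsn, Egr1, Ltbp4, Hspg2 and C3 and the falls Postn, Fn1, Sparc, Igf2 and Fbn1. Gsn, the actin-severing and secreted protein gelsolin (chr2:35256380-35307892), averaged 2735 CPM (SD 463, n = 3) at postnatal day 1 and 50225 CPM (SD 616, n = 2) at 1.5 years (log2 fold change 4.20, SE 0.17, adjusted p = 1.54e-08). C3, the central protein of the complement cascade (chr17:57203970-57228136), averaged 9.85 CPM (SD 6.06, n = 3) at postnatal day 1 and 15866 CPM (SD 3749, n = 2) at 1.5 years (log2 fold change 10.65, SE 0.48, adjusted p = 2.58e-08). In its postnatal libraries C3 was at 16.8, 6.57 and 6.12 CPM. Both genes were thus among the most highly counted of the older fibroblasts, and C3 was a minor one at postnatal day 1. Ltbp4, which binds latent TGF-β and elastic fibres, was at 4197, 4510.3 and 4904 CPM at postnatal day 1 and 11217 and 10275 CPM at 1.5 years (log2 fold change 1.24, SE 0.13, adjusted p = 1.92e-05). Hspg2, the basement membrane proteoglycan perlecan, was at 5449, 5900.0 and 6212 CPM at postnatal day 1 and 8659 and 7473 CPM at 1.5 years (log2 fold change 0.46, SE 0.13, adjusted p = 0.0299). Egr1, an immediate early transcription factor, was at 6604, 4325 and 4492 CPM at postnatal day 1 and 10854 and 10570.3 CPM at 1.5 years (log2 fold change 1.06, SE 0.17, adjusted p = 0.000846). The folds of these 3 were small, and a lack of overlap between the ages was required of all 10 genes by the rule that chose them. Of the falls, Postn, the matricellular protein periostin of the growing and injured heart, was at 6099.7, 9851 and 8617 CPM at postnatal day 1 and 832 and 427 CPM at 1.5 years (log2 fold change -3.70, SE 0.38, adjusted p = 2.04e-05). Fn1, fibronectin, was at 5974, 8511 and 7973 CPM at postnatal day 1 and 871 and 597 CPM at 1.5 years (log2 fold change -3.35, SE 0.29, adjusted p = 4.97e-06). Sparc, a collagen-binding matricellular protein, was at 4976, 5394 and 5670.2 CPM at postnatal day 1 and 2023 and 1325 CPM at 1.5 years (log2 fold change -1.68, SE 0.19, adjusted p = 5.44e-05). In all 3 the second older library was the lowest of the 5. Igf2, the fetal insulin-like growth factor (chr7:142650766-142666816), was at 5706, 6275 and 5375 CPM at postnatal day 1 and 76.8 and 110.1 CPM at 1.5 years (log2 fold change -5.95, SE 0.31, adjusted p = 7.07e-08). Fbn1, the main protein of elastic microfibrils, was at 2745, 3265 and 3359 CPM at postnatal day 1 and 2394 and 1656 CPM at 1.5 years (log2 fold change -0.62, SE 0.18, adjusted p = 0.034). The changes of Hspg2 and Fbn1 were the smallest of the 10. Hspg2 no longer passed with scaling by library size only, with only the 2 ages fitted, without 1.5-year replicate 4 or without postnatal replicate 1 or 2 (adjusted p from 0.0578 to 0.208). Fbn1 no longer passed with only the 2 ages fitted, without 1.5-year replicate 5 or without postnatal replicate 2 or 3 (adjusted p from 0.0746 to 0.301).

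Most genes of the cell cycle and of DNA replication were lower at 1.5 years. Of 46 tested, 0 rose, 34 fell and 12 did not pass the test, where 6.43% of all genes fell, and their median log2 fold change was -3.12 beside 0.00 for all genes. Mki67, the proliferation antigen Ki67, was at 162, 259 and 194 CPM at postnatal day 1 and 4.34 and 3.83 CPM at 1.5 years (log2 fold change -5.65, SE 0.52, adjusted p = 8.37e-06). Top2a, the topoisomerase that untangles replicated DNA, was at 109, 148 and 96.4 CPM at postnatal day 1 and 2.05 and 2.74 CPM at 1.5 years (log2 fold change -5.62, SE 0.45, adjusted p = 2.53e-06). Bub1b, which acts at the kinetochore in mitosis, was at 41.7, 68.8 and 36.3 CPM at postnatal day 1 and 0.829 and 0.249 CPM at 1.5 years (log2 fold change -6.50, SE 0.57, adjusted p = 5.46e-06). In each of them every postnatal library was far above both older ones. Cenpe, a kinetochore motor, was at 36.97, 60.05 and 41.9 CPM at postnatal day 1 and 1.06 and 0.140 CPM at 1.5 years (log2 fold change -6.27, SE 1.00, adjusted p = 0.000749). The genes of all 6 subunits of the replicative helicase, Mcm2 to Mcm7, fell, with log2 fold changes from -2.66 for Mcm5 to -0.79 for Mcm4. Pcna, the sliding clamp of replication, and Ccnd2, a cyclin of G1, did not pass (log2 fold changes 0.23 and -0.36). Of the falls of the list, 24 passed without 1.5-year replicate 5 and 26 without replicate 4. Mcm3 no longer passed without 1.5-year replicate 4 (adjusted p = 0.0512). Mcm4 no longer passed without 1.5-year replicate 4 or 5 (adjusted p from 0.0909 to 0.111). Mcm6 no longer passed without 1.5-year replicate 4 or 5 (adjusted p from 0.0595 to 0.121).

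Promoters of this list were searched for motifs, and those of 4 genes are shown. RefSeq promoters on GRCm38.p6, from 250 bases before to 50 after each start, were at hand for 34 of the 46 genes. These were taken whether or not the gene passed the test and are not the set of genes that fell. The shares below thus describe the list and not the fall with age. Both strands were searched for the CCAAT box (CCAAT) and the cell cycle homology region (TTTGAA), 2 motifs known from promoters of mitotic genes, which can share at most 1 base at their ends. Of 36 promoters, 27 (75.0%) held CCAAT, 13 (36.1%) held TTTGAA and 13 held both, beside 37.4%, 17.9% and 6.95% of all 32851 promoters. CCAAT was also frequent in other lists, whichever way they moved, with 69.6% for MHC class I, 64.0% for the circadian clock and 60.0% for the fetal genes. TTTGAA was in at most 25.7% of the promoters of any other list. The site of E2F transcription factors, TTT and CGC with any 2 bases between them, was in 10 of the 36 promoters (27.8%). It was in 5.17% of all promoters and in at most 20.0% of those of any other list. In all, 13 motifs were searched, and those named were picked after their counts were seen. A match describes these letters and is not a bound site. The 4 genes are those with the largest falls of the list that reached 10 CPM, with CCAAT and TTTGAA in capitals on either strand. Top2a held 6 copies of CCAAT, Mki67 held 3 and the others 1 each, and Cenpe held no TTTGAA in this window.
Bub1b (chr2:118597961-118598260, plus strand): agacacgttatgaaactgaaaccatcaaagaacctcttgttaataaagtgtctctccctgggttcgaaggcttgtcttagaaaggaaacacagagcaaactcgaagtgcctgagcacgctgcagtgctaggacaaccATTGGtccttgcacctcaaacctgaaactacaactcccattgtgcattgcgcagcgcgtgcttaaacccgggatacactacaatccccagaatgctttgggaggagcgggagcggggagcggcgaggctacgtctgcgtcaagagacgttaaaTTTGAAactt
Cenpe (chr3:135212313-135212612, plus strand): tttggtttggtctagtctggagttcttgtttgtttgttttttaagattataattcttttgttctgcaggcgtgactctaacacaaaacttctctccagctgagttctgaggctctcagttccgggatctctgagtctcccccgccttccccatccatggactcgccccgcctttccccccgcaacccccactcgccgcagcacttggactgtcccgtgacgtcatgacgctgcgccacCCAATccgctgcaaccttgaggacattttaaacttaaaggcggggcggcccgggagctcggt
Mki67 (chr7:135716330-135716629, minus strand): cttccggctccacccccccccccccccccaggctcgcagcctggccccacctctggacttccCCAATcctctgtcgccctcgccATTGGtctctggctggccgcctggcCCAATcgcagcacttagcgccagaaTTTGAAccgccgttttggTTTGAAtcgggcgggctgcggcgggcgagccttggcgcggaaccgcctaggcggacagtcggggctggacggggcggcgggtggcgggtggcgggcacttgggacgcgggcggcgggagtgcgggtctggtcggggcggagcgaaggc
Top2a (chr11:99024140-99024439, minus strand): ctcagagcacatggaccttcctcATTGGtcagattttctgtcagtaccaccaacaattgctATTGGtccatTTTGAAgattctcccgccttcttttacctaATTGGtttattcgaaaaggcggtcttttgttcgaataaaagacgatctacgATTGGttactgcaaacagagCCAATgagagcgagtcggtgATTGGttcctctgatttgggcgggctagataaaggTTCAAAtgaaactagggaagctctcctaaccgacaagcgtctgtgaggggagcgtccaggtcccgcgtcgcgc

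Inhibitors of cyclin-dependent kinases and genes associated with senescence went in both directions. Of 25 tested, 9 rose, 5 fell and 11 did not pass the test (median log2 fold change 0.33). Cdkn1a, the kinase inhibitor p21, was at 61.1, 43.5 and 47.5 CPM at postnatal day 1 and 369 and 472 CPM at 1.5 years (log2 fold change 3.05, SE 0.21, adjusted p = 8.21e-07). It rose without overlap of the ages. Cdkn1c, the imprinted inhibitor p57, lay between 263 and 392 CPM at postnatal day 1 and at 80.8 CPM in both libraries at 1.5 years (log2 fold change -2.09, SE 0.25, adjusted p = 8.1e-05). Lmnb1, lamin B1 of the nuclear envelope, which also stands in the cell cycle list, lay between 74.5 and 93.7 CPM at postnatal day 1 and at 7.70 and 12.98 CPM at 1.5 years (log2 fold change -3.03, SE 0.33, adjusted p = 3.33e-05). Cdkn2b, the inhibitor p15, was at 0, 2.81 and 0 CPM at postnatal day 1 and 2.68 and 1.09 CPM at 1.5 years, which overlapped (adjusted p = 0.835).

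Imprinted and fetal genes were lower as well. Of 24 genes of the imprinted list, 2 rose, 16 fell and 6 did not pass the test (median -2.45). H19, the noncoding RNA next to Igf2 (chr7:142575529-142578143), was at 5776, 5967 and 5012 CPM at postnatal day 1 and 19.7 and 25.7 CPM at 1.5 years (log2 fold change -7.94, SE 0.43, adjusted p = 1.01e-07). The falls held paternally expressed genes (Igf2, Dlk1, Peg3, Mest, Plagl1) and maternally expressed genes (H19, Meg3, Cdkn1c, Igf2r, Zim1). Mest fell by 5.15, Plagl1 by 4.31, Peg3 by 4.14 and Meg3 by 2.04 on the log2 scale. The rises were those of Sgce (log2 fold change 0.95) and of Dcn, which encodes the matrix proteoglycan decorin. Among fetal RNA-binding and chromatin genes, 0 rose, 16 fell and 5 did not pass the test of 21 (median -2.09). Beside Igf2bp3, the other Igf2 mRNA-binding proteins fell. Igf2bp1 was at 21.6, 46.03 and 26.4 CPM at postnatal day 1 and 0.0650 and 0.156 CPM at 1.5 years (log2 fold change -8.12, SE 0.88, adjusted p = 3.23e-05). Igf2bp2 was at 153, 97.97 and 151 CPM at postnatal day 1 and 7.17 and 2.85 CPM at 1.5 years (log2 fold change -4.74, SE 0.45, adjusted p = 1.12e-05). The postnatal libraries of both lay far above the older ones. Dnmt1 and Dnmt3a, which methylate DNA, fell by 1.47 and 2.09 on the log2 scale.

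Genes that mark fibroblasts were mostly higher at 1.5 years. Of 28 in the fibroblast identity list, 20 rose, 3 fell and 5 did not pass the test (median 1.37). Ly6a, the surface antigen Sca-1, was at 0.981, 1.49 and 0.0440 CPM at postnatal day 1 and 265 and 269 CPM at 1.5 years (log2 fold change 8.31, SE 0.69, adjusted p = 3.66e-06). Its relative Ly6c1 lay between 1.39 and 4.62 CPM at postnatal day 1 and at 126 and 171 CPM at 1.5 years (log2 fold change 5.64, SE 0.59, adjusted p = 2.35e-05). Pi16, a secreted protein of adventitial fibroblasts, was at 29.5, 29.8 and 30.2 CPM at postnatal day 1 and 2158 and 1466 CPM at 1.5 years (log2 fold change 5.92, SE 0.21, adjusted p = 9.12e-09). Pi16 differed little among the postnatal libraries, whereas Ly6a was close to 0 in the third. Dcn was at 2529, 2126 and 2598 CPM at postnatal day 1 and 12447 and 11004 CPM at 1.5 years (log2 fold change 2.28, SE 0.15, adjusted p = 5.27e-07). Pdgfra, the gene of the sorted antigen, rose little (log2 fold change 0.45, SE 0.13, adjusted p = 0.0276). Pdgfra no longer passed with scaling by library size only, with only the 2 ages fitted, without 1.5-year replicate 4 or 5 or without postnatal replicate 1 or 2 (adjusted p from 0.0596 to 0.228). The falls were those of Cdh11, a cadherin of mesenchyme (log2 fold change -2.72), the laminin gene Lamb1 (-0.45) and Thy1. Thy1, a surface protein of many fibroblasts, was at 83.999, 87.8 and 97.5 CPM at postnatal day 1 and 54.3 and 26.8 CPM at 1.5 years (log2 fold change -1.15, SE 0.26, adjusted p = 0.00952). Thy1 no longer passed with only the 2 ages fitted or without 1.5-year replicate 5 (adjusted p from 0.0536 to 0.0937). Lamb1 no longer passed with no filter on low counts, with only the 2 ages fitted, without 1.5-year replicate 4 or 5 or without postnatal replicate 2 or 3 (adjusted p from 0.0531 to 0.309).

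Most developmental transcription factors did not pass the test. Of 43, 7 rose, 4 fell and 32 did not pass the test (median 0.22), beside 10% and 6.43% of all genes, so that nothing is read from these counts about the list. Klf4, a factor that also answers to stress and serum, was at 446, 563 and 636 CPM at postnatal day 1 and 4839.8 and 4284 CPM at 1.5 years (log2 fold change 3.06, SE 0.20, adjusted p = 5.22e-07). Foxc1, a forkhead factor, rose by 2.52 on the log2 scale (SE 0.18), and the CCAAT/enhancer-binding factors Cebpb and Cebpd by 2.35 (SE 0.24) and 2.16 (SE 0.15). The falls were those of the heart and mesenchyme factors Tbx18, Foxc2, Tbx20 and Gata4, with log2 fold changes of -2.10, -1.13, -0.98 and -0.73, and of these 4 Tbx18 alone passed without 1.5-year replicate 5. Foxc2 no longer passed without 1.5-year replicate 4 or 5 or without postnatal replicate 1 or 3 (adjusted p from 0.0588 to 0.205). Tbx20 no longer passed without 1.5-year replicate 5 (adjusted p = 0.0517). Gata4 no longer passed with only the 2 ages fitted, without 1.5-year replicate 5 or without postnatal replicate 1 (adjusted p from 0.0697 to 0.234).

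Matrix genes outside the collagens split. Of 52 matricellular and glycoprotein genes, 24 rose, 14 fell and 14 did not pass the test (median 0.16), and 9 fell without 1.5-year replicate 5. Comp, a collagen-binding protein of cartilage, was at 5.09, 0.0439 and 0.0294 CPM at postnatal day 1 and 371 and 295 CPM at 1.5 years (log2 fold change 7.56, SE 1.23, adjusted p = 0.000861). The first postnatal library stood above the other 2 and still far below 1.5 years. Efemp1, fibulin-3, lay between 0.944 and 4.19 CPM at postnatal day 1 and at 294 and 261 CPM at 1.5 years (log2 fold change 6.84, SE 0.44, adjusted p = 4.71e-07). Wisp2, a CCN protein, lay between 1.11 and 1.82 CPM at postnatal day 1 and at 102 and 75.9 CPM at 1.5 years (log2 fold change 5.95, SE 0.25, adjusted p = 1.54e-08). Cilp, a matrix protein known from fibrotic heart, lay between 12.8 and 18.6 CPM at postnatal day 1 and at 753 and 527 CPM at 1.5 years (log2 fold change 5.41, SE 0.29, adjusted p = 7.68e-08). Like nearly all called genes, these 4 did not overlap between the ages. Elastic fibre genes went both ways. Eln, tropoelastin, and the microfibril genes Fbn2 and Mfap2 fell by 2.13, 5.30 and 3.16 on the log2 scale, and the fibulins Fbln1 and Fbln5 and the latent TGF-β-binding protein gene Ltbp2 rose by 3.23, 1.70 and 2.60. Tnc, tenascin-C, fell by 3.96 and the CCN gene Wisp1 by 4.36. Wisp1 no longer passed without 1.5-year replicate 4 (adjusted p = 0.0778). Of 33 genes of small proteoglycans and hyaluronan, 13 rose, 5 fell and 15 did not pass the test (median 0.78). Podn, podocan, lay between 1.29 and 8.97 CPM at postnatal day 1 and at 265 and 253 CPM at 1.5 years (log2 fold change 5.94, SE 0.59, adjusted p = 1.66e-05). Has1, a hyaluronan synthase, lay between 4.60 and 21.3 CPM at postnatal day 1 and at 278 and 213 CPM at 1.5 years (log2 fold change 4.41, SE 0.63, adjusted p = 0.000341). Prg4, lubricin, lay between 6.30 and 12.7 CPM at postnatal day 1 and at 113 and 101 CPM at 1.5 years (log2 fold change 3.46, SE 0.25, adjusted p = 9.98e-07). All 3 were higher in both older libraries than in any postnatal one. The falls of this list were those of Tmem2 (-1.996), Aspn (-1.48), Sdc1 (-1.01), Itih5 (-0.57) and Sdc3 (-0.53), with log2 fold changes in parentheses. The calls of Tmem2, Sdc1, Itih5 and Sdc3 were lost on leaving out at least 1 of the libraries (adjusted p up to 0.372).

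Of 34 genes that fold, process and crosslink collagen, 5 rose, 10 fell and 19 did not pass the test (median -0.12). Pcolce2, an enhancer of procollagen C-proteinase, was at 5.96, 0.146 and 10.3 CPM at postnatal day 1 and 403 and 348 CPM at 1.5 years (log2 fold change 6.10, SE 0.88, adjusted p = 0.000359). The second postnatal library was far below the other 2. P4ha3, a subunit of prolyl 4-hydroxylase, lay between 42.97 and 62.6 CPM at postnatal day 1 and at 2.54 and 1.14 CPM at 1.5 years (log2 fold change -4.83, SE 0.68, adjusted p = 0.000289). Adamts14, which trims procollagen, lay between 146 and 224 CPM at postnatal day 1 and at 23.1 and 17.5 CPM at 1.5 years (log2 fold change -3.21, SE 0.25, adjusted p = 1.8e-06). P3h2, a prolyl 3-hydroxylase, fell by 1.93 and the crosslinking oxidases Lox and Loxl2 by 1.92 and 1.54 on the log2 scale. The rises were those of Pcolce2 (6.10), P4ha1 (1.26), Loxl4 (1.13), Fkbp7 (1.03) and Pcolce (0.66), with log2 fold changes in parentheses. The calls of Loxl4 and Pcolce were lost on leaving out at least 1 of the libraries (adjusted p up to 0.18). Among the falls, the same held for Ppib and Sec23a (adjusted p up to 0.0777).

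**Figure D4:**
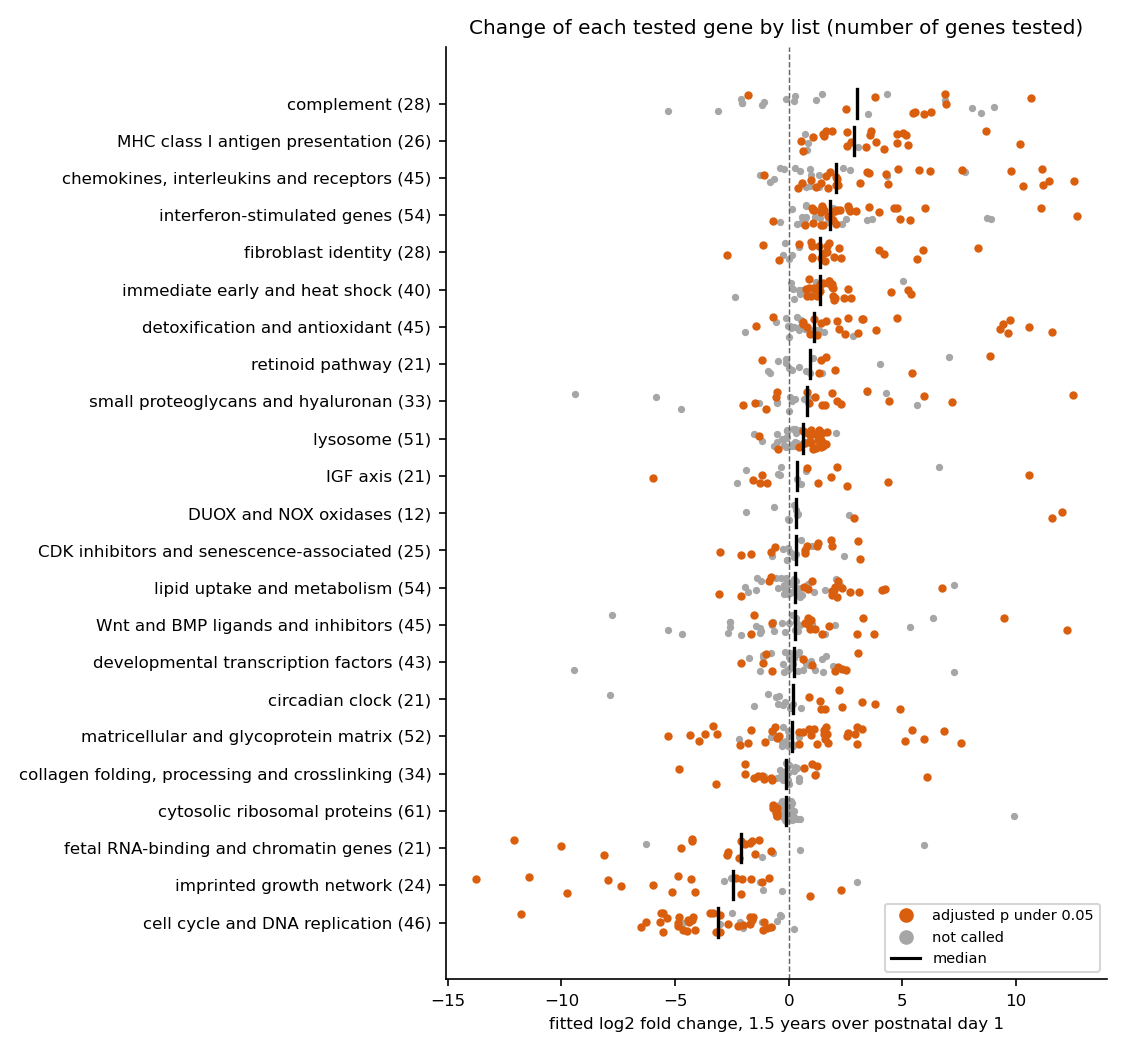
Fitted log2 fold change (1.5 years over postnatal day 1) of each tested gene in 23 gene lists, ordered by their medians; orange points passed an adjusted p of 0.05, gray points did not and black bars are medians. Cell cycle, imprinted and fetal genes lie mostly to the left of 0 and complement, MHC class I, chemokine and interferon-stimulated genes mostly to the right, and ribosomal protein genes lie close to 0.

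Complement genes were higher at 1.5 years where they passed the test, except C1qb. Of 28, 9 rose, 1 fell and 18 did not pass the test (median 3.00, or 2.49 with genes of at most 3 counts at their limit). C1s1, a protease of the first component, was at 13.1, 6.001 and 7.46 CPM at postnatal day 1 and 1201 and 936 CPM at 1.5 years (log2 fold change 6.91, SE 0.30, adjusted p = 1.93e-08). C4b, which is cleaved next in the cascade, lay between 6.32 and 12.04 CPM at postnatal day 1 and at 575 and 448 CPM at 1.5 years (log2 fold change 5.95, SE 0.30, adjusted p = 5.13e-08). C7, a part of the membrane attack complex, lay between 0.278 and 2.40 CPM at postnatal day 1 and at 106 and 109 CPM at 1.5 years (log2 fold change 6.26, SE 0.55, adjusted p = 5.44e-06). With C3, these span the cascade from its start to its end, and like nearly all called genes they did not overlap between the ages. C4a, a close copy of C4b with which it can share reads, was also called higher. C1qb, a product of macrophages, was called lower. It is itself in the list of 12 macrophage markers, of which 4 were called lower, C1qb included. The 12 markers summed to 110.5 and 99.1 CPM at 1.5 years against 161 to 315 CPM at postnatal day 1. The part of macrophages in this result was not tested. C4a no longer passed with scaling by library size only, with median-of-ratios scaling, with no filter on low counts, with only the 2 ages fitted, without X, Y and mitochondrial genes, without 1.5-year replicate 4 or 5 or without postnatal replicate 1 or 2 (adjusted p from 0.0501 to 0.174). C1qb no longer passed with only the 2 ages fitted, without 1.5-year replicate 5 or without postnatal replicate 1 or 3 (adjusted p from 0.0944 to 0.302).

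Genes of MHC class I antigen presentation rose in 22 of 26, and none fell (median 2.89, where 10% of all genes rose). H2-K1, a classical class I heavy chain, was at 29.5, 20.7 and 22.1 CPM at postnatal day 1 and 883 and 821 CPM at 1.5 years (log2 fold change 5.14, SE 0.24, adjusted p = 2.77e-08). H2-Q4, a nonclassical one, was at 25.6, 14.5 and 15.9 CPM at postnatal day 1 and 625 and 612 CPM at 1.5 years (log2 fold change 5.05, SE 0.37, adjusted p = 1.33e-06). In both genes the 2 older libraries were nearly equal. H2-Q7 was at 0.0245, 0.0146 and 0.0294 CPM at postnatal day 1 and 19.9 and 37.2 CPM at 1.5 years (at least 687-fold higher at 1.5 years, adjusted p = 1.31e-06). H2-Q6 lay between 0.0294 and 2.45 CPM at postnatal day 1 and at 39.7 and 73.7 CPM at 1.5 years (log2 fold change 5.24, SE 1.03, adjusted p = 0.00327). H2-Q6 and H2-Q7 are near-identical, so that their separate values are uncertain. B2m, the light chain, rose by 2.55 on the log2 scale, the immunoproteasome subunits Psmb8 and Psmb9 by 3.59 and 4.21 and Nlrc5, the class I transactivator, by 4.74. Psmb9 no longer passed with only the 2 ages fitted or without 1.5-year replicate 5 (adjusted p from 0.0771 to 0.115). Nlrc5 no longer passed with only the 2 ages fitted or without 1.5-year replicate 5 (adjusted p from 0.0629 to 0.102). Markers of MHC class II cells summed to 202 and 142 CPM at 1.5 years against 1.86 to 11.2 CPM at postnatal day 1, with the invariant chain gene Cd74 at 1.54, 1.42 and 0.117 CPM at postnatal day 1 and 93.1 and 74.6 CPM at 1.5 years. The summed lymphocyte markers were at 5.51 and 21.7 CPM at 1.5 years against 0 to 10.2 CPM at postnatal day 1, and Cd3g and Cd79a were at 0 in all postnatal libraries and at most at 3.12 CPM later. The part of these cells in the results on class I and interferon-stimulated genes was not tested.

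Interferon-stimulated genes rose in 33 of 54, fell in 1, Irf8, and did not pass in 20 (median 1.79). Without 1.5-year replicate 5 the rises numbered 20, and without replicate 4 they numbered 28. Ifit3b, an antiviral RNA-binding protein with a close copy in Ifit3, was at 0, 0.0146 and 0.529 CPM at postnatal day 1 and 11.2 and 12.1 CPM at 1.5 years (log2 fold change 6.01, SE 1.21, adjusted p = 0.00392). Oas2, an oligoadenylate synthetase that senses foreign RNA, was at 0.0245, 0.0293 and 1.57 CPM at postnatal day 1 and 17.2 and 26.4 CPM at 1.5 years (log2 fold change 5.34, SE 1.09, adjusted p = 0.00422). Gbp4, a guanylate-binding protein, was at 0, 0.0293 and 1.37 CPM at postnatal day 1 and 3.56 and 23.9 CPM at 1.5 years (log2 fold change 4.90, SE 1.49, adjusted p = 0.0411). In all 3 genes the third postnatal library lay above the other 2, and for Gbp4 the older libraries differed widely. Ifit3b no longer passed with only the 2 ages fitted (adjusted p = 0.0801). Oas2 no longer passed with only the 2 ages fitted (adjusted p = 0.0802). Gbp4 no longer passed with only the 2 ages fitted, without 1.5-year replicate 5 or without postnatal replicate 1 or 2 (adjusted p from 0.0729 to 0.315). Irf8 no longer passed without 1.5-year replicate 4 or 5 or without postnatal replicate 3 (adjusted p from 0.0558 to 0.168). RefSeq promoters were at hand for 38 of the 54 genes. The core of the interferon-stimulated response element, GAAA and GAAA with any 2 bases between them, stood on either strand in 25 of 46 promoters (54.3%) of this list and in 5 of 23 (21.7%) of the MHC class I list, beside 3.44% of all 32851 promoters. This element was 1 of the 13 motifs searched, and like the others named it was picked after its counts were seen. The promoters of Tgtp2 and Ifit3b, the largest rises of this list among genes named by rule, are shown with the element in capitals, which stood once in Tgtp2 and in 2 copies in Ifit3b.
Tgtp2 (chr11:49064163-49064462, minus strand): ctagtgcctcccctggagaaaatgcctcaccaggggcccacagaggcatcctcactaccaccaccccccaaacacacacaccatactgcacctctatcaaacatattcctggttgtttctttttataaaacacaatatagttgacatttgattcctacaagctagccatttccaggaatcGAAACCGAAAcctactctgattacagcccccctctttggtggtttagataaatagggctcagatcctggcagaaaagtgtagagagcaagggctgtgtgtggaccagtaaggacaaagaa
Ifit3b (chr19:34607707-34608006, plus strand): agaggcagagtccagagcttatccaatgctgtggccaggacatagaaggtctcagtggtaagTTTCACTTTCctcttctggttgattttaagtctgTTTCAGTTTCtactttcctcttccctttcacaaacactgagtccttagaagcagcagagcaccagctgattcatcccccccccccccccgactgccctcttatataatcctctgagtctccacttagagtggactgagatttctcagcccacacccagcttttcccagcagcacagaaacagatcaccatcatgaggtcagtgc

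Genes of chemokines, interleukins and their receptors rose in 27 of 45, fell in 1 and did not pass in 17 (median 2.09). Beside Ccl11 and Cxcl14, Cx3cl1, the membrane-bound chemokine fractalkine, was at 2.57, 1.80 and 1.17 CPM at postnatal day 1 and 139.7 and 134 CPM at 1.5 years (log2 fold change 6.20, SE 0.28, adjusted p = 2.72e-08). Tnfsf13b, the B cell survival factor BAFF, was at 0.821, 0 and 0 CPM at postnatal day 1 and 17.7 and 12.4 CPM at 1.5 years (log2 fold change 5.75, SE 1.73, adjusted p = 0.0392). The first postnatal library alone held more than a trace of Tnfsf13b. Tnfsf13b no longer passed with only the 2 ages fitted, without 1.5-year replicate 4 or 5 or without postnatal replicate 2 or 3 (adjusted p from 0.0687 to 0.1). Il6 and Il33, cytokines of stromal cells, rose by 4.27 and 3.12 on the log2 scale and Cxcl12, a chemokine that retains leukocytes, by 3.51. Ccl2 (0.48) and Cxcl10 (0.97) did not pass. The fall was that of Il1rl2 (-1.08), with log2 fold change in parentheses. The call of Il1rl2 was lost on leaving out at least 1 of the libraries (adjusted p up to 0.124).

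Immediate early and heat shock genes, which answer to stimuli and to the handling of tissue, rose in 30 of 40, and none fell (median 1.35). Hspa1b, a heat shock protein of the HSP70 family, was at 7.55, 28.2 and 16.1 CPM at postnatal day 1 and 824 and 612 CPM at 1.5 years (log2 fold change 5.38, SE 0.84, adjusted p = 0.000628). Hspa1a was at 8.12, 14.8 and 5.78 CPM at postnatal day 1 and 389 and 327 CPM at 1.5 years (log2 fold change 5.23, SE 0.64, adjusted p = 8.69e-05). The Hspa1a and Hspa1b genes are near-identical, so that their separate values are uncertain. Libraries of 1 age differed widely at 14 weeks and 1 year. Hspa1b was at 180 and 579 CPM at 14 weeks and 51.7 and 453 CPM at 1 year. Hspa1a was at 150 and 387 CPM and at 35.1 and 198 CPM. At 4 weeks Hspa1b was at 28.2, 36.9 and 74.5 CPM. Hspb1, a small heat shock protein, lay between 12.8 and 17.7 CPM at postnatal day 1 and at 393 and 291 CPM at 1.5 years (log2 fold change 4.51, SE 0.35, adjusted p = 1.94e-06). Dnajb1, a cochaperone, lay between 98.1 and 107 CPM at postnatal day 1 and at 763 and 614 CPM at 1.5 years (log2 fold change 2.75, SE 0.34, adjusted p = 0.000106). The transcription factors Fos, Fosb, Junb and Atf3 rose by 1.34, 1.96, 1.78 and 2.45 on the log2 scale. Cells of both ages were digested and sorted, and no record of handling was used here.

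In the insulin-like growth factor axis the growth factor Igf2 and both receptors fell and the binding proteins rose. Of 21 genes, 7 rose, 5 fell and 9 did not pass the test (median 0.38). The receptors Igf1r and Igf2r fell by 0.98 and 1.19 on the log2 scale, and Igf1 did not pass (log2 fold change 0.54, adjusted p = 0.0541). Igfbp2 to Igfbp7, 6 genes of binding proteins that hold the growth factors, all rose. Igfbp6, which prefers IGF2, was at 22.5, 16.4 and 15.4 CPM at postnatal day 1 and 379.8 and 357 CPM at 1.5 years (log2 fold change 4.35, SE 0.17, adjusted p = 1.4e-08). Igfbp4 was at 768, 566 and 708 CPM at postnatal day 1 and 3023 and 2907 CPM at 1.5 years (log2 fold change 2.12, SE 0.16, adjusted p = 1.93e-06). Htra1, a protease of binding proteins, lay between 37.7 and 54.9 CPM at postnatal day 1 and at 299 and 256 CPM at 1.5 years (log2 fold change 2.55, SE 0.17, adjusted p = 7.34e-07). These 3 genes, like nearly all called ones, did not overlap between the ages. Igfbp2 no longer passed with only the 2 ages fitted or without 1.5-year replicate 4 or 5 (adjusted p from 0.0529 to 0.067). Igfbp5 no longer passed with scaling by library size only, without 1.5-year replicate 4 or without postnatal replicate 2 or 3 (adjusted p from 0.0513 to 0.152).

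Of 45 genes of Wnt and BMP ligands and inhibitors, 13 rose, 3 fell and 29 did not pass the test (median 0.26), beside the 10% of all genes that rose and the 6.43% that fell. The count of falls is near that share. Wnt11, a ligand, lay between 2.98 and 13.7 CPM at postnatal day 1 and at 67.8 and 63.5 CPM at 1.5 years (log2 fold change 3.00, SE 0.45, adjusted p = 0.00047). Wnt9a, a ligand too, lay between 9.54 and 15.7 CPM at postnatal day 1 and at 45.8 and 35.9 CPM at 1.5 years (log2 fold change 1.76, SE 0.26, adjusted p = 0.000421). Fst, follistatin, which binds activins, lay between 0.776 and 3.79 CPM at postnatal day 1 and at 21.02 and 16.01 CPM at 1.5 years (log2 fold change 3.28, SE 0.57, adjusted p = 0.00148). All were higher in both older libraries. Rspo1, which enhances Wnt signals, lay between 0.0146 and 2.66 CPM at postnatal day 1 and at 20.9 and 20.2 CPM at 1.5 years (log2 fold change 3.75, SE 1.02, adjusted p = 0.0235). Rspo1 no longer passed with only the 2 ages fitted, without 1.5-year replicate 4 or 5 or without postnatal replicate 3 (adjusted p from 0.054 to 0.115). The falls of this group were those of Apcdd1 (-1.67), Wnt5b (-1.54) and Fzd2 (-0.72), with log2 fold changes in parentheses. The calls of Wnt5b and Fzd2 were lost on leaving out at least 1 of the libraries (adjusted p up to 0.308). In the retinoid pathway, 6 rose, 1 fell and 14 did not pass the test of 21 (median 0.91). Aldh1a1, which makes retinoic acid, was at 42.2, 48.3 and 63.8 CPM at postnatal day 1 and 152 and 126 CPM at 1.5 years (log2 fold change 1.44, SE 0.17, adjusted p = 6.22e-05). Aldh1a2, which makes it in the embryo, fell by 1.18 on the log2 scale. Dhrs3, a retinal reductase, and the receptor Rarg rose by 2.02 and 1.64. Rbp4, the carrier of retinol, lay between 0 and 0.699 CPM at postnatal day 1 and at 12.04 and 8.70 CPM at 1.5 years (log2 fold change 5.42, SE 1.46, adjusted p = 0.0228). Aldh1a2 no longer passed without 1.5-year replicate 5 or without postnatal replicate 3 (adjusted p from 0.0542 to 0.207). Rbp4 no longer passed with only the 2 ages fitted or without 1.5-year replicate 4 (adjusted p from 0.0666 to 0.111).

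Detoxification and antioxidant genes rose in 23 of 45 and fell in 2 (median 1.09). Gsta3, a glutathione transferase, was at 0.343, 0.0439 and 0.0294 CPM at postnatal day 1 and 119.7 and 116 CPM at 1.5 years (log2 fold change 9.63, SE 0.61, adjusted p = 3.74e-07). Ces1d, a carboxylesterase, was at 0.907, 0.102 and 0.0440 CPM at postnatal day 1 and 244 and 259.9 CPM at 1.5 years (log2 fold change 9.41, SE 0.75, adjusted p = 2.51e-06). Gstt1, a glutathione transferase, lay between 1.48 and 3.90 CPM at postnatal day 1 and at 90.5 and 66.4 CPM at 1.5 years (log2 fold change 4.76, SE 0.35, adjusted p = 1.32e-06). All 3 were separated by age, and the first postnatal library was the highest of its group for Gsta3 and Ces1d. The metallothioneins Mt1 and Mt2 rose by 2.62 and 3.02 on the log2 scale and Sod3, the extracellular superoxide dismutase, by 3.22. The falls among these genes were those of Gpx7 (-1.44) and Prdx2 (-0.71), with log2 fold changes in parentheses. The call of Prdx2 was lost on leaving out at least 1 of the libraries (adjusted p up to 0.248). Of 12 genes of DUOX and NOX oxidases, 3 rose, 0 fell and 9 did not pass the test (median 0.34). The rises were Duox1, its maturation factor Duoxa1 and Nox4. Nox4, which makes hydrogen peroxide, was at 3.53, 6.29 and 2.80 CPM at postnatal day 1 and 28.5 and 32.7 CPM at 1.5 years (log2 fold change 2.86, SE 0.43, adjusted p = 0.00047).

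Lysosomal genes rose in 26 of 51 and fell in 2 (median 0.61). Hexa, a hexosaminidase, lay between 47.02 and 64.2 CPM at postnatal day 1 and at 209 and 164 CPM at 1.5 years (log2 fold change 1.70, SE 0.17, adjusted p = 1.77e-05). Arsb, a sulfatase of matrix glycosaminoglycans, lay between 47.9 and 55.5 CPM at postnatal day 1 and at 174 and 126 CPM at 1.5 years (log2 fold change 1.53, SE 0.17, adjusted p = 4.83e-05). Manba, a mannosidase, and Ctsh, a cathepsin, rose by 1.50 and 1.64 on the log2 scale. Ctsh no longer passed with only the 2 ages fitted (adjusted p = 0.0519). The lysosomal falls were those of Cd68 (-1.30) and Man2b1 (-0.48), with log2 fold changes in parentheses. The calls of Cd68 and Man2b1 were lost on leaving out at least 1 of the libraries (adjusted p up to 0.34). Of 54 genes of lipid uptake and metabolism, 15 rose, 4 fell and 35 did not pass the test (median 0.26), and the count of falls is again near the 6.43% of all genes. Ptgs2, the inducible cyclooxygenase, was at 5.08, 0.761 and 9.44 CPM at postnatal day 1 and 587 and 494 CPM at 1.5 years (log2 fold change 6.73, SE 0.71, adjusted p = 2.72e-05). Apod, a lipid carrier, lay between 6.93 and 9.98 CPM at postnatal day 1 and at 134 and 140.3 CPM at 1.5 years (log2 fold change 4.08, SE 0.19, adjusted p = 2.77e-08). Pltp, the phospholipid transfer protein, lay between 9.26 and 34.6 CPM at postnatal day 1 and at 191 and 198 CPM at 1.5 years (log2 fold change 3.11, SE 0.38, adjusted p = 9.33e-05). These 3 were higher in both older libraries. Fabp5, a fatty acid-binding protein, lay between 61.9 and 118 CPM at postnatal day 1 and at 8.27 and 13.6 CPM at 1.5 years (log2 fold change -3.05, SE 0.58, adjusted p = 0.00254). The falls of the lipid list included those of Fabp5 (-3.05), Angptl4 (-2.11) and Plin2 (-0.79), with log2 fold changes in parentheses. The calls of Angptl4 and Plin2 were lost on leaving out at least 1 of the libraries (adjusted p up to 0.124).

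In the circadian clock list, 9 rose, 0 fell and 12 did not pass the test of 21 (median 0.20), and 1 was lower in edgeR at an unadjusted p under 0.05 and 1 was called lower by DESeq2. Nr1d1, the repressor REV-ERBα, was at 10.1, 4.11 and 6.33 CPM at postnatal day 1 and 125 and 65.1 CPM at 1.5 years (log2 fold change 3.79, SE 0.36, adjusted p = 1.04e-05). Bhlhe41, a repressor of the clock, lay between 0.0147 and 2.76 CPM at postnatal day 1 and at 36.8 and 28.6 CPM at 1.5 years (log2 fold change 4.89, SE 0.92, adjusted p = 0.0024). Bhlhe40 and Npas2 rose by 3.22 and 2.34 on the log2 scale. The time of day of collection is not given in the sources used here. Bhlhe41 no longer passed with only the 2 ages fitted (adjusted p = 0.0643). Of 61 genes of cytosolic ribosomal proteins, 0 rose, 7 fell and 54 did not pass the test (median -0.13), beside the 6.43% of all genes that fell, and 2 were higher in edgeR at an unadjusted p under 0.05 and 2 were called higher by DESeq2. The falls of Rps26, Rpl15, Rpl29 and Rpl32 had log2 fold changes from -0.71 to -0.58. None of the 7 passed without 1.5-year replicate 5 and 1 ribosomal gene passed with only the 2 ages fitted, whereas 21 fell with scaling by library size only.

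Levels at the ages in between place these changes within the span. The comparisons of 4 weeks with postnatal day 1 and of 1.5 years with 4 and 14 weeks share libraries with the one above, and 15.6%, 3.04% and 2.76% of the 17615 genes were called in them. From postnatal day 1 through 4 weeks, 14 weeks and 1 year to 1.5 years, the mean level of Igf2 was 5786, 96.4, 71.8, 40.9 and 93.5 CPM. That of H19 was 5585, 31.3, 14.3, 12.8 and 22.7 CPM, and that of Dlk1 was 1781, 2.58, 0.763, 0.535 and 2.04 CPM. The 3 imprinted genes were already low at 4 weeks and were not called between 4 weeks and 1.5 years (adjusted p = 0.992, 0.504 and 0.89). Gsn was at 2735, 34996, 36488, 37388 and 50225 CPM and Pi16 at 29.8, 2256, 1475, 3027 and 1812 CPM at these ages, again with no call between 4 weeks and 1.5 years (adjusted p = 0.132 and 0.469). Mki67, at 205, 47.8, 6.45, 2.18 and 4.09 CPM, was lower at 1.5 years than at 4 weeks (log2 fold change -3.55, adjusted p = 0.00135). The means of C3 were 9.85, 1047, 5506, 21887 and 15866 CPM, those of Cxcl14 0.227, 68.2, 268, 929.9 and 523 CPM and those of C1s1 8.84, 157, 529, 1119.9 and 1068 CPM. All 3 rose further from 4 weeks to 1.5 years, with log2 fold changes of 3.92, 2.94 and 2.77 (adjusted p = 0.00016, 1.14e-06 and 0.000154). Sparc, at 5347, 6971, 3367, 4229 and 1674 CPM, was not called between postnatal day 1 and 4 weeks (adjusted p = 0.144) and fell by 2.06 on the log2 scale from then to 1.5 years (adjusted p = 0.000176). Fbn1, at 3123, 5009.8, 2798, 3720.2 and 2025 CPM, rose by 0.68 to 4 weeks and fell by 1.31 afterwards (adjusted p = 0.0117 and 0.00243). Some genes called higher at 1.5 years than at postnatal day 1 lay higher still in between. C7 was at 404 and 601 CPM at 14 weeks, 559 and 822 CPM at 1 year and 106 and 109 CPM at 1.5 years. Prg4 was at 387 and 366, 538 and 587, and 113 and 101 CPM at these ages. At 1 year C4b was at 1458 and 2154 CPM and Cilp at 3177 and 1744 CPM, above their levels at 1.5 years. The libraries of 14 weeks and 1 year held Xist at 0.315 CPM or less and Ddx3y at 71.7 CPM or more, the opposite of those of 1.5 years. Those of 4 weeks held both, with Xist at 379 to 590 CPM and Ddx3y at 24.8 to 50.8 CPM.

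**Figure D5:**
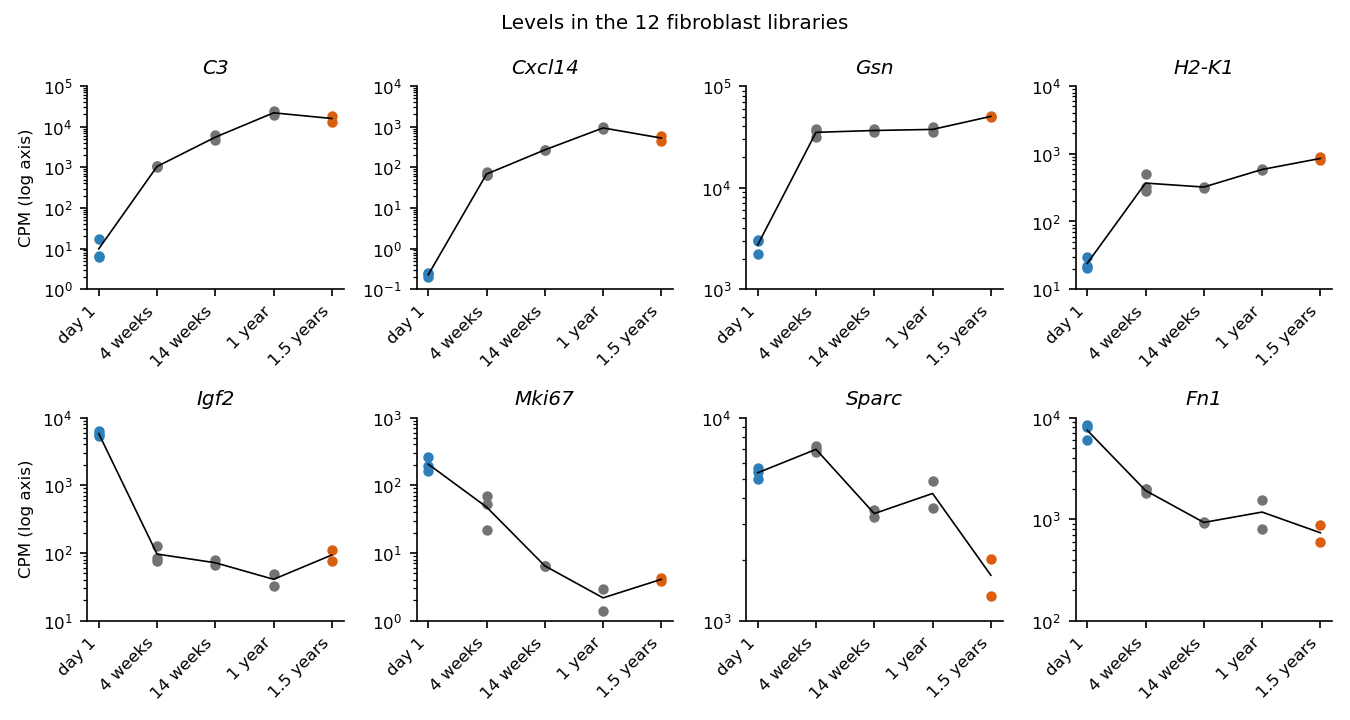
CPM (log axes) of 8 genes in the 12 fibroblast libraries at 5 ages; each point is 1 library, lines join the means, and the ages compared are blue (postnatal day 1) and orange (1.5 years). The means of C3 and Cxcl14 are higher at each age up to 1 year, those of Igf2 and Gsn have moved by 4 weeks, and that of Sparc is lowest at 1.5 years.

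Whole heart gives a second view of the 20 genes with the largest changes, in a fit of all 27 libraries with the change in fibroblasts minus that in heart as the contrast. Of 19285 genes of the rule in this fit, 14.0% were called. The 20 genes were chosen by their change in fibroblasts, which enters this contrast and favours larger changes there, so that the values are a description, and no count of the 20 is read against that share. Cxcl14 in whole heart was at 0.227 to 0.426 CPM at postnatal day 1 and 43.4 to 52.5 CPM at 1.5 years, with a log2 difference of 3.91 (SE 0.34). Inmt was at 0.0546 to 0.0928 CPM at postnatal day 1 and 10.4 to 16.5 CPM at 1.5 years, with a difference of 3.40 (SE 0.68). Dlk1 was at 78.1 to 110.3 CPM at postnatal day 1 and 0.872 to 1.78 CPM at 1.5 years, with a difference of -3.64 (SE 0.90). All 3 moved in the same direction in both tissues, without overlap of the ages in heart. Hcn4 was at 2.25 to 6.64 CPM at postnatal day 1 and 5.22 to 8.44 CPM at 1.5 years in whole heart, where the ages overlapped. Ccl11 was at 0 to 0.0218 CPM at postnatal day 1 and 1.58 to 6.27 CPM at 1.5 years, Igf2bp3 at 24.6 to 31.96 CPM at postnatal day 1 and 0 to 0.0636 CPM at 1.5 years and Magel2 at 0.786 to 2.69 CPM at postnatal day 1 and 0 CPM in every library at 1.5 years in whole heart. These 3 were also apart in heart, in the direction they had in fibroblasts.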

How the data were processed

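The authors mapped single-end reads to mm10 with STAR 2.5.3a and deposited raw counts per gene, without normalization, for 12 fibroblast and 15 whole heart libraries; annotation and strand setting are not given in the sources used here. The deposited counts were whole numbers, and none of 4 replicate pairs within the 2 ages held identical counts. The sources state that fibroblast sets came from different hearts and give 3 sets at each age, whereas the labels hold 2 at 1.5 years. Groups were taken from the labels. All 12 fibroblast libraries were fitted with edgeR 4.0.16 (R 4.3.3; TMM, filterByExpr, quasi-likelihood F test, age as the only factor), with p adjusted over 18759 genes and a threshold of 0.05. The comparison with whole heart was a contrast of age by tissue over all 27 libraries, treated as independent although the sources describe the hearts as those that gave the fibroblasts; no label ties a fibroblast library to a heart library. SE values are |log2 fold change| over the root of F. The script was tested on simulated data. Positions and gene types came from GENCODE M21 and RefSeq, and promoters from RefSeq (GRCm38.p6). Gene lists and members were chosen with earlier results of these data known. Genes named were the 10 largest rises and falls (protein-coding, adjusted p under 0.05, no overlap, mean of 10 CPM at either age), the 5 highest by counts in each direction under the same criteria, up to 4 per list with a mean of 10 CPM, and cell type markers. Other genes named in a group were chosen after their values were seen. A few genes that the rule covers are not reported here. Alternatives were DESeq2 1.42.0, median-of-ratios or library-size scaling, fits of only the 2 ages, a 2-fold minimum, no filter, a minimum of 10 counts per compared sample, each library left out and no X, Y or mitochondrial genes.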

Additional observations from a re-analysis of the deposited data

Results flagged for a closer look

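For 8 of the 20 genes with the largest changes in fibroblasts, the change differed from that of whole heart by edgeR's interaction test (adjusted p under 0.05 over all genes of the fit). The genes were chosen by the fibroblast change that enters this test, and several reached the minimum level only at 1 age of the fibroblasts, so that larger changes in fibroblasts were favoured and the test is no independent evidence. A positive value means that the log2 fold change was higher in fibroblasts. The values were 8.54 for Tgtp2, 9.01 for Itih2, 10.56 for Ptgfr, 3.91 for Cxcl14 and 3.40 for Inmt. Below 0 were -13.03 for Hcn4, -11.72 for Moxd1 and -3.64 for Dlk1. Except for Cxcl14, Inmt and Dlk1, these genes had at most 3 counts in every fibroblast library of 1 age, so that the fitted size depends on the prior count and is no bound. In whole heart Ptgfr was at 0.140 to 1.75 CPM at postnatal day 1 and 0.0159 to 2.86 CPM at 1.5 years, Itih2 at 0.0107 to 0.392 CPM at postnatal day 1 and 1.05 to 2.46 CPM at 1.5 years, Moxd1 at 0 to 1.46 CPM at postnatal day 1 and 0.0794 to 3.60 CPM at 1.5 years and Tgtp2 at 0.0103 to 1.42 CPM at postnatal day 1 and 5.94 to 8.93 CPM at 1.5 years. Whole heart holds fibroblasts among other cells, and the part of its cell makeup was not tested. No group held 4 or more samples, so that single samples were not screened for outliers.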

How the results depend on the processing

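No paired analysis was possible because the 2 ages share no replicate number. Fibroblasts and whole heart share numbers 1 to 3 at postnatal day 1 and 4 weeks and none at 1.5 years. Same-numbered libraries did not deviate together (correlations from -0.0343 to 0.0171, and -0.0453 to 0.0616 for other pairs). With the number as a replicate block, chosen after seeing the data, 2554 genes differed between the tissues against 2698, Moxd1 no longer passed (adjusted p = 0.0522) and the value of Hmga2 was 0.460. Of 110 genes named by rule, 77 had a value under all 13 alternatives, and 68 of these kept their direction and their side of the threshold; 33 had none with a minimum of 10 counts in every library compared and 2 none by DESeq2. No direction changed where a value was had. The difference between the tissues for Hmga2, -0.00416 and not called, became 0.0891 with scaling by library size only and 0.0248 with only the 2 ages fitted. The 2897 changed genes (1764 higher, 1133 lower) became 1910 with only the 2 ages fitted (1119 higher), and the lower genes became 1927 by DESeq2, 1828 with scaling by library size only and 696 with at least a 2-fold change. Leaving out 1 library gave 1775 to 2815 changed, 1201 to 1758 higher and 574 to 1057 lower genes, with fewest without 1.5-year replicate 5, and 342 to 415 changed genes of the 23 lists, against 425. Genes whose change differed between the tissues numbered 2698, and 1490 with only the 11 libraries of the 2 ages fitted. The cause of these differences was not tested. Alternatives had between 1698 and 2886 of the 2897 genes among their calls. With 2 libraries at 1.5 years, small changes such as those of Pdgfra, Hspg2, Fbn1 and the ribosomal genes are at the limit of what could be called. Reads that fit near-identical copies (H2-Q6 and H2-Q7, Tgtp1 and Tgtp2, Hspa1a and Hspa1b, C4a and C4b) are uncertain, and whether reads were counted by strand is not given in the sources used here.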

Other observations

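Several marker genes of other cells moved between the ages. H2-Aa, an MHC class II chain, was at 0.0736, 0.102 and 0.0734 CPM at postnatal day 1 and 38.6 and 15.7 CPM at 1.5 years (log2 fold change 8.32, SE 0.65, adjusted p = 2.05e-06), H2-Ab1 lay between 0.233 and 2.27 CPM at postnatal day 1 and at 31.5 and 27.4 CPM at 1.5 years (log2 fold change 4.45, SE 0.65, adjusted p = 0.000366) and H2-Eb1 lay between 0.0490 and 1.57 CPM at postnatal day 1 and at 34.2 and 15.4 CPM at 1.5 years (log2 fold change 5.44, SE 1.01, adjusted p = 0.00224), while the dendritic cell gene Itgax was at 2.28, 0 and 0 CPM at postnatal day 1 and 0.601 and 1.50 CPM at 1.5 years and did not pass (adjusted p = 0.975). Among smooth muscle and pericyte markers, Myh11, smooth muscle myosin, was at 5.27, 1.48 and 1.54 CPM at postnatal day 1 and 31.1 and 66.2 CPM at 1.5 years (log2 fold change 4.13, SE 0.70, adjusted p = 0.00117), whereas Notch3, a receptor of pericytes, lay between 300.1 and 504 CPM at postnatal day 1 and at 107 and 80.9 CPM at 1.5 years (log2 fold change -2.16, SE 0.28, adjusted p = 0.000133) and Cspg4, a pericyte proteoglycan, lay between 33.8 and 58.95 CPM at postnatal day 1 and at 6.89 and 13.03 CPM at 1.5 years (log2 fold change -2.17, SE 0.40, adjusted p = 0.00209). Ngfr, a neurotrophin receptor in the glial list, was at 61.3, 32.5 and 57.99 CPM at postnatal day 1 and 14.1 and 6.86 CPM at 1.5 years (log2 fold change -2.27, SE 0.53, adjusted p = 0.0102). Ngfr no longer passed without 1.5-year replicate 5 (adjusted p = 0.109).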
